A study of Mus musculus with 15 samples.

Results

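The transcripts described here have a very short 5′UTR, of 1 to 30 nt, in the length column of tables that count ribosome-protected reads in mouse liver. They were chosen by that length and by a mean of at least 10 reads per library summed over the 5′UTR, CDS and 3′UTR, with the short transcript of highest mean kept for each gene. This gave 1023 transcripts of 1023 genes, out of 28167 transcripts in the tables and 17299 with the count minimum. They are compared with 10713 other transcripts of the same count minimum, also 1 per gene. The rule used no rhythm. It used reads only through the count minimum and the choice of 1 transcript per gene, and CDS density is computed from the same reads.

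The study profiled ribosome-protected fragments over a circadian day. All animals were wild-type male C57BL/6N mice aged 8 to 10 weeks, kept in a cycle of 12 h light and 12 h dark for 2 weeks and then moved to constant darkness. Whole liver was taken from 2 mice every 4 h from CT0 to CT24, which makes 7 groups, with no treatment and no mutant among the 14 libraries used. The title of the last pair gives CT24 and its time label CT00, and the title was followed. Counts summed over all transcripts ran from 40593197 to 90458783 per library. Transcripts of 1 gene can share reads, so these sums are not numbers of sequenced reads. Reads have no molecular identifiers, so counting intervals cover counting error only.

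In cap-dependent initiation the small ribosomal subunit loads at the 5′ cap and scans towards the first start codon in a favourable context, classically a purine at position -3 and a G at +4, where the A of the ATG is +1. A 5′UTR as short as those described here leaves little room for that subunit before the start codon is reached. A known element for such mRNAs is TISU, the translation initiator of short 5′UTRs, which lies over the start codon and contains the letters ATGGCGGC. It is known from housekeeping genes, many of them for mitochondrial proteins.

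Sequences around the start codon are shown for members whose 5′UTR lies in the first exon and whose length in the tables matches the reference annotation (RefSeq on GRCm38.p6). The first set holds 6 of the members with a 5′UTR of at most 10 nt and without ATGGCGGC. It shows how little sequence that annotation places before the start codon. The whole 5′UTR of that annotation is in lower case, the start codon in capitals and the next 5 bases of CDS in lower case.
Dbi: cgaagATGctgtg
Ugt2b1: gcaagATGtctat
Inmt: ggctagaATGgaggg
Celsr1: ccgggccATGgcgcc
Acot1: agctcgagATGgaggc
H4c3: gtcataaccATGtctgg
Dbi encodes an acyl-CoA-binding protein and its window is chr1:120120907-120120919 on the minus strand. Ugt2b1, a glucuronosyltransferase, is at chr5:86926491-86926503 (minus strand). Inmt, a methyltransferase of indolethylamines, is at chr6:55174976-55174990 (minus strand). Celsr1, a cadherin of planar cell polarity, is at chr15:86033763-86033777 (minus strand). Acot1, a cytosolic acyl-CoA thioesterase, is at chr12:84009502-84009517 (plus strand), and H4c3, a gene of histone H4, is at chr13:23698442-23698458 (minus strand).

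The second set holds the 5 members with ATGGCGGC at the start codon and the highest CDS density. Those 8 letters are in capitals and the whole 5′UTR of the reference annotation is in lower case.
Psmb7: caagATGGCGGC
Grpel1: ggggcagtcATGGCGGC
Fmc1: aaggacagaaaaATGGCGGC
Pmpcb: actttctccaccgcagagATGGCGGC
Ndufb5: ttccgtggccggtgtagccATGGCGGC
Psmb7 encodes a catalytic subunit of the proteasome, and its window is chr2:38643895-38643906 on the minus strand. The other windows are on the plus strand, and all of these genes act in mitochondria. Grpel1, a partner of the mitochondrial Hsp70, is at chr5:36465185-36465201. Fmc1, an assembly factor of the ATP synthase, is at chr6:38534861-38534880. Pmpcb, a subunit of the peptidase that removes import signals, is at chr5:21737160-21737185, and Ndufb5, a subunit of complex I, is at chr3:32737063-32737089.

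The 5′UTR lengths in the tables were checked against that annotation. Among the 1023 members, 1013 were found on a chromosome, and 688 (67.9%) matched. The tables add 1 nt for each further exon of a 5′UTR, so a match was an equal length in the 679 members with a 5′UTR in 1 exon and 1 nt more in the tables for the other 9. The share was 79.6% of the 10598 other transcripts found. The reference gave a 5′UTR of 1 to 30 nt to 776 members and a longer one to 237, with a median of 74 nt among those 237. Fgg is an example, with 12 nt in the tables and 184 nt in the reference, and Thrsp has 7 and 47 nt. The GENCODE M21 annotation also gave longer 5′UTRs: of the 688 matching members, 363 had a GENCODE transcript with over 30 nt before the same start codon and 311 had transcripts of at most 30 nt only. Among the members shown above, the longest GENCODE 5′UTR was 185 nt for Psmb7, 196 nt for Grpel1 and 92 nt for Ndufb5. It was 50 nt for Fmc1, 37 nt for Pmpcb, 60 nt for Inmt and 32 nt for Ugt2b1, but 23 nt for Dbi and 5 nt for H4c3. The label therefore holds for the annotation used in the tables, and for a smaller set in all 3 sources.

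Within the tables the members had a median 5′UTR of 19 nt against 163 nt in the other transcripts. There were 234 members of 1 to 10 nt, 336 of 11 to 20 nt and 453 of 21 to 30 nt. Other regions were shorter too, with a median CDS of 1126 nt against 1417 nt and a median 3′UTR of 554 nt against 941 nt. For 90 members the tables also hold a transcript of the same gene with a 5′UTR over 30 nt, and in 60 of these the longer transcript had more reads. The CDS counts of such a pair were equal in all libraries in 8 genes. In those 8, reads over the CDS give no information on which transcript was bound. Their 5′UTRs held 552 reads in the short transcripts and 3708 in the longer ones, most of both in Cyp4f14 (552 and 3347), and the longer transcript had more in 6 of the 8.

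The bases around the start codon were compared with those of longer 5′UTRs, and the larger difference was at +4. Of 681 matching members with at least 3 nt of 5′UTR and an ATG start, 89.0% had A or G at -3 (95% Wilson interval 86.4 to 91.1), against 86.7% of 8429 other transcripts (85.9 to 87.4). A G at +4 was present in 69.9% of members (66.4 to 73.2) against 51.8% of others (50.7 to 52.9). Both were present in 64.6% (60.95 to 68.1) against 44.6% (43.5 to 45.6). The intervals overlap for the purine at -3 and do not overlap for the other measures.

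The letters ATGGCGGC, read on the transcript strand at the start codon only, were present in 118 of the 681 members, or 17.3% (14.7 to 20.3). They were present in 242 of the 8429 other transcripts, or 2.87% (2.54 to 3.25). The full TISU consensus was matched by 39 of the 118 members and 74 of the 242 others. By length the share with ATGGCGGC was 13.3% at 3 to 10 nt, 21.4% at 11 to 20 nt and 16.05% at 21 to 30 nt. It was 8.49% at 31 to 60 nt, 4.36% at 61 to 100 nt, 2.23% between 100 and 200 nt and 1.36% above 200 nt. The share was thus lower with each longer class beyond 30 nt, and the intervals of the 3 short classes overlap each other. The share was 18.2% (14.3 to 22.9) in members with no longer GENCODE 5′UTR and 17.2% (13.7 to 21.5) in those with one, and these intervals overlap.

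**Figure D1:**
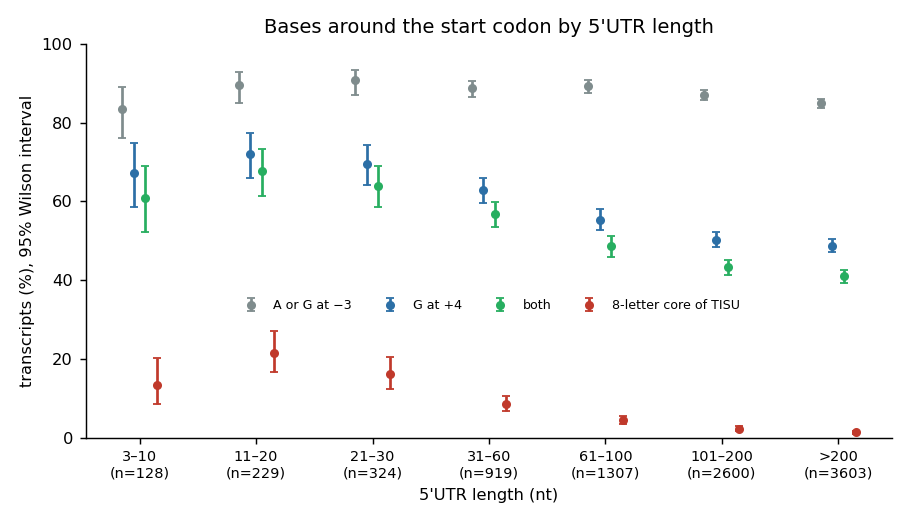
Share of transcripts with a purine at -3, a G at +4, both, or the letters ATGGCGGC at the start codon, in percent with 95% Wilson intervals, for 7 classes of 5′UTR length on the x axis. The share with ATGGCGGC is between 13.3% and 21.4% in the 3 classes up to 30 nt and 1.36% above 200 nt, while the share with a purine at -3 stays between 83.6% and 90.7%.

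Of the 118 members with ATGGCGGC, 21 (17.8%) had the word mitochondrial in the name of their reference product, against 20 of the 563 without it (3.55%). Among the families described below the count was highest for mitochondrial ribosomal proteins, with ATGGCGGC in 11 of the 17 members that had a sequence. The median GC content was 63.6% against 64.5% in other 5′UTRs. A 5′ end of C followed by at least 4 pyrimidines, as in TOP mRNAs, was present in 2.49% of members and 2.30% of others. An ATG upstream of the start codon was present in 6.00% of members and 50.03% of others, and a shorter 5′UTR has fewer positions for one.

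Few reads were assigned to the 5′UTRs themselves. The 5′UTR share of reads in 5′UTR and CDS was 0.328% ± 0.0624 in members (SD, n = 14 libraries, range 0.241 to 0.462%), against 7.57% ± 1.23 in the other transcripts with a 5′UTR (range 5.90 to 10.1%). It was 0.151% in the members whose 5′UTR length matched the reference, a subset chosen after the data were seen. No library of the members overlapped any of the others. Of the 1023 members, 537 (52.5%) had no 5′UTR read in any library, against 773 of 10550 others (7.33%). By length, 74.4% of members of 1 to 5 nt had none, 58.8% at 11 to 15 nt and 42.7% at 26 to 30 nt, against 27.3% at 31 to 60 nt and 2.09% above 200 nt.

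Per nucleotide the order of the classes depended on the measure. The median ratio of 5′UTR to CDS reads per nt, with 0.5 added to each count, was 0.0706 at 1 to 5 nt, where most transcripts had no 5′UTR read and the added 0.5 sets the value. It was 0.0346 at 26 to 30 nt, 0.0773 at 31 to 60 nt, 0.218 at 61 to 100 nt and 0.569 above 200 nt. With reads pooled over the transcripts of a class, a ratio set by those with most reads, it was 0.0549 at 1 to 5 nt, 0.471 at 16 to 20 nt, 0.29 at 26 to 30 nt, 0.412 at 31 to 60 nt, 1.61 at 61 to 100 nt and 0.555 above 200 nt. The assignment of reads bears on this directly. In the methods each read of 26 to 32 nt was assigned to the A site, 13 to 17 nt from its 5′ end, so a read lying wholly in a transcript cannot fall in its first 13 nt. Of the 332 members with at most 13 nt, 113 nevertheless had a 5′UTR read, with 6646 reads in all against 6559854 CDS reads. Of those 6646 reads, 3593 lay in members whose reference 5′UTR is longer than in the tables, and 3053 in members whose length matched. Reads that begin upstream of the annotated 5′ end are needed for these counts under that rule, and whether the rule was applied to these counts is not given in the sources used here.

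**Figure D2:**
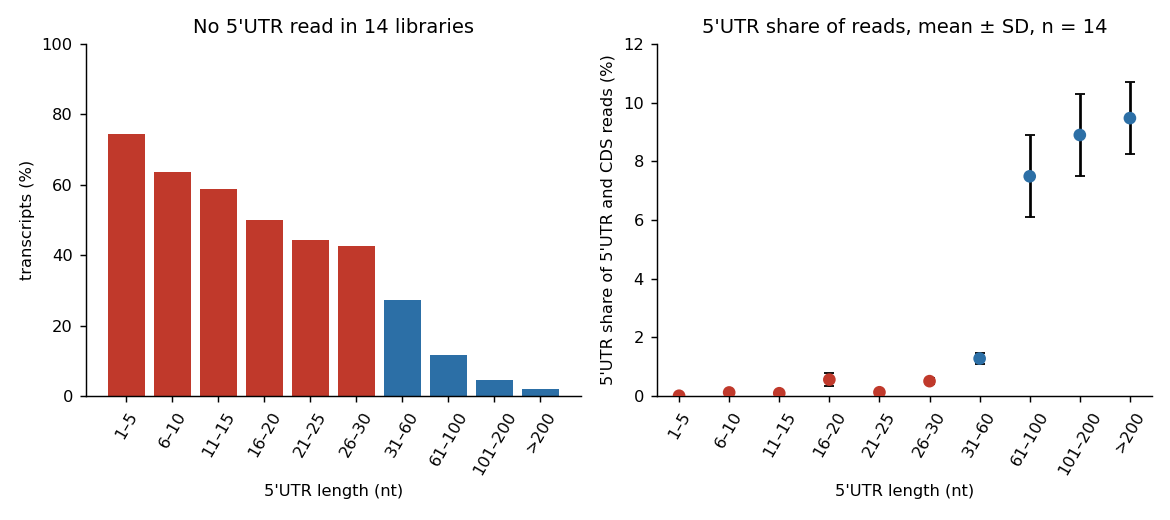
Left, percentage of transcripts with no 5′UTR read in any of 14 libraries, by 5′UTR length in nt (red, members; blue, longer 5′UTRs). Right, 5′UTR share of 5′UTR and CDS reads in percent, mean ± SD over 14 libraries; the share is at most 0.564% in the classes up to 30 nt, 1.28% at 31 to 60 nt and 9.47% above 200 nt.

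The 10 members with most 5′UTR reads held 76.2% of the members' 87441. Cyp2e1, a cytochrome P450 that oxidises ethanol, held 31689 (996 to 4915 per library), and its 5′UTR is 19 nt in the tables and 32 nt in the reference. Fgb, the fibrinogen beta chain, held 15926, and its 5′UTR is 29 nt in the tables and 102 nt in the reference. Both are among the most abundant CDSs. The 5′UTR share of their reads was 1.30% and 1.14%, above the 0.328% of all members. Hpx and Fgg, whose CDSs are also abundant, had 0.0096% and 0.127%.

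A few short 5′UTRs held many reads for their CDS. The largest share was that of Txnrd2, the mitochondrial thioredoxin reductase, with 20.0% of reads in a 5′UTR of 28 nt (11.6 to 25.9% over the 14 libraries, 3096 reads). Per nt that was 14.3 times the density over its CDS. Triap1 followed with 10.1% (4.72 to 16.1%). Insig1, which retains the sterol-regulated transcription factor SREBP in the endoplasmic reticulum, had 9.77% (6.73 to 18.2%, 4855 reads). Tmem128 had 8.03% (0.897 to 12.2%) and Smim26 had 7.68% (3.93 to 11.8%). The reference 5′UTR is longer than 30 nt for Triap1 (40 nt) and Tmem128 (217 nt). It matches for the other members of this set, whose start codon (or, for Txnrd2, the 8 letters ATGGCGGC) is in capitals below, after the last 22 nt of 5′UTR.
Txnrd2: gaccgcctgaggtccccggaccATGGCGGC
Insig1: tccatgctgtgcctggacgccgATGcccag
Smim26: cttcctcctctcctatggagccATGcgagc
These windows, on the plus strand, are chr16:18426423-18426452, chr5:28071416-28071445 and chr2:144594069-144594098. The 5′UTR of Insig1 holds an ATG 19 nt before the start codon and that of Smim26 an ATG 8 nt before it, both out of frame with the CDS. Txnrd2 has none.

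CDS density, given as RPKM on TMM-scaled library totals, was higher for members than for other transcripts in all 14 libraries. The median member had 3.83 to 4.37 in a library and the median other transcript 2.19 to 2.27, so the groups of medians did not overlap. The difference of the medians was 0.87 ± 0.06 on the log2 scale (SD, n = 14, range 0.78 to 0.98), or 1.82-fold. The libraries differ little because they share the same transcripts, so this spread is not that of transcripts. Ribosome-protected reads reflect both mRNA amount and ribosomes per mRNA, and these cannot be told apart here.

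Density showed no steady trend across the short classes and fell with length above 60 nt. Among the short classes, that of 26 to 30 nt (3.17 to 3.73 over the libraries) lay below that of 11 to 15 nt (4.36 to 5.05). The median was 4.36 ± 0.43 at 1 to 5 nt, 4.17 ± 0.25 at 6 to 10 nt, 4.70 ± 0.19 at 11 to 15 nt, 3.88 ± 0.26 at 16 to 20 nt, 4.25 ± 0.31 at 21 to 25 nt and 3.46 ± 0.14 at 26 to 30 nt (SD over 14 libraries). It was 4.08 ± 0.14 at 31 to 60 nt, 3.35 ± 0.06 at 61 to 100 nt, 2.51 ± 0.05 between 100 and 200 nt and 1.56 ± 0.03 above 200 nt. The class of 31 to 60 nt therefore lay within the range of the members, and the 163 transcripts with no 5′UTR at all had the lowest median, 0.895 ± 0.0698. Just inside the limit, the 51 transcripts of 30 nt had a median of 3.79, and just outside it the 38 of 31 nt had 5.72 and the 51 of 32 nt had 3.96.

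**Figure D3:**
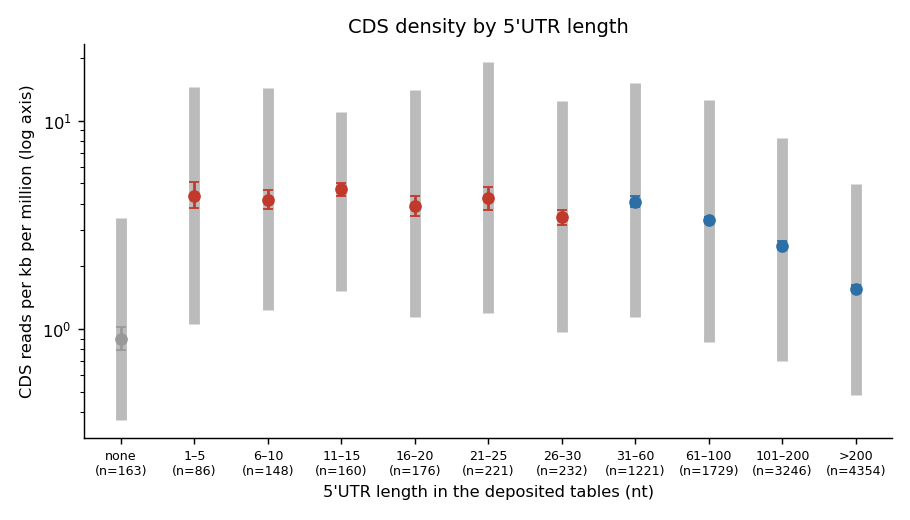
CDS density in RPKM (log axis) by 5′UTR length class in nt. Points are the mean over 14 libraries of the class median (red, members; blue, longer 5′UTRs; grey, no 5′UTR), whiskers the lowest and highest library and grey bars the middle 50% of transcripts; the medians lie between 3.46 and 4.70 up to 30 nt and at 1.56 above 200 nt.

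CDS length moved with this difference, since short CDSs had higher densities in both groups. Within classes of CDS length the difference was 0.92 ± 0.22 up to 300 nt (11 members), 0.66 ± 0.07 beyond that up to 600 nt, 0.68 ± 0.08 up to 1200 nt, 0.67 ± 0.05 up to 2400 nt and 0.26 ± 0.10 above 2400 nt. Weighted by the members in each class it was 0.62. The annotation moved with it as well: the difference from matching others was 0.54 ± 0.09 for members with no longer GENCODE 5′UTR and 1.08 ± 0.05 for those with one. Matching members with ATGGCGGC had a median 0.93 ± 0.06 above matching others and those without it 0.78 ± 0.07. The difference between these 2 sets of members was 0.15 ± 0.07, above 0 in all libraries.

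Secreted and metabolic proteins of the hepatocyte led the members. Cyp2e1 had the highest CDS density, 1890 ± 518 RPKM (SD, n = 14), followed by Hpx, the heme-binding plasma protein hemopexin, with 1818 ± 473. These were within each other's spread. Fgg and Fgb, chains of fibrinogen, had 1232 ± 283 and 1120 ± 229. Gnmt, which consumes S-adenosylmethionine, had 782 ± 96.2, and Hpd, an enzyme of tyrosine breakdown, had 729 ± 121. Inmt had 599 ± 129, Nudt7, a peroxisomal hydrolase of coenzyme A, 444 ± 78.3, Ces1c, a carboxylesterase, 430 ± 42.2, and Apoa5, an apolipoprotein that lowers plasma triglyceride, 413 ± 89.7. Among these, Hpx, Gnmt, Inmt and Ces1c have the same 5′UTR length in the tables and the reference. Nudt7 also has a transcript with a longer 5′UTR and more reads, which held 77062 5′UTR reads against 71 in the short one.

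Among 5′UTRs of at most 10 nt, the members with most reads after Hpd and Inmt were Ugt2b1, Dbi and Thrsp. Ugt2b1 had a CDS density of 274 ± 41.8 with 5 nt, Dbi 400 ± 59.7 with 5 nt, and Thrsp, a protein of lipogenesis, 376 ± 279. For Dbi the tables also hold a transcript with a 5′UTR of 143 nt and more reads, with 14376 5′UTR reads against 0 in the short one, so its CDS density cannot be assigned to the 5 nt form. The 118 members with ATGGCGGC had a median CDS density of 4.24, against 4.02 for all members. Among the 5 densest of them Ndufb5 had 67.4 ± 10.4, Psmb7 59.8 ± 5.86, Grpel1 58.2 ± 4.01, Fmc1 40.05 ± 6.99 and Pmpcb 37.7 ± 3.06. Psmb7, with a 5′UTR of 4 nt in the tables and one of up to 185 nt in GENCODE, varied little across the libraries, between 50.7 and 70.4.

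Gene families differed in how many of their measured genes were members, against 8.72% of all 11736 genes compared. Members were 26 of 79 mitochondrial ribosomal proteins (32.9%), 22 of 67 cytochrome P450 enzymes (32.8%), 9 of 46 proteasome subunits (19.6%), 14 of 80 respiratory chain and ATP synthase subunits (17.5%) and 10 of 63 histones (15.9%). They were 11 of 84 cytosolic ribosomal proteins (13.1%), 18 of 144 Tmem genes (12.5%), 11 of 110 secreted plasma proteins (10.0%) and 4 of 47 conjugating transferases (8.51%). Shares below the background were found for 14 of 229 solute carriers (6.11%), 5 of 84 lipid and bile acid enzymes (5.95%), 15 of 302 zinc finger proteins (4.97%), 4 of 110 small GTPases and their regulators (3.64%) and 1 of 79 immune genes (1.27%). None of the 19 major urinary protein transcripts was a member. Of 25 clock and clock-output genes the only member was Rora, a nuclear receptor that activates Bmal1.

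Over all genes the median CDS density was 4.02 in members against 2.18 in others, and by family the members lay above, near or below the family's other genes. The median was 14.9 against 12.6 for mitochondrial ribosomal proteins, 85.5 against 93.9 for respiratory chain subunits, 25.1 against 19.9 for proteasome subunits, 27.9 against 32.5 for cytosolic ribosomal proteins, 47.9 against 52.9 for histones, 3.44 against 3.57 for solute carriers and 0.471 against 0.401 for zinc finger proteins. Members were lower among cytochrome P450 enzymes (10.8 against 17.96) and lipid enzymes (9.37 against 21.1), and the 1 immune member had 0.262 against 0.905. They were higher among secreted plasma proteins (221 against 120), conjugating transferases (121 against 46.4), small GTPase genes (9.54 against 3.78) and Tmem genes (5.54 against 2.61), and the 1 clock member had 5.14 against 2.23. These are medians of few genes and were not tested.

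Named members of these families give the scale. Atp5b, the catalytic beta subunit of the ATP synthase, had a 5′UTR of 20 nt and between 421 and 587 CPM (reads of the whole transcript on TMM-scaled library totals) in the 14 libraries. Cox6a1, a subunit of cytochrome c oxidase, had 87.8 to 168. Psmb1, a proteasome subunit with a 5′UTR of 14 nt, had 45.5 to 54.7, and Psmb7 had 42.8 to 59.3. The mitochondrial ribosomal proteins Mrpl12 and Mrpl52 had 18.1 to 35.7 and 11.8 to 23.7. None of these passed edgeR's test of a 24 h rhythm (adjusted p from 0.21 for Atp5b to 0.87 for Mrpl12). JTK_CYCLE, the second test described below, gave a P of 0.0126 for Cox6a1 and 0.0439 for Mrpl52. The JTK_CYCLE P of a single gene was computed on CPM by the total count, not on the TMM-scaled CPM given beside it.

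One library carried reads that touch the rhythms of the members. Pancreatic acinar genes, which encode digestive enzymes, had very short 5′UTRs in 8 of the 10 markers measured. Their reads came almost wholly from CT20 replicate 2. Cela2a, a pancreatic elastase, had 48460 reads there, at most 999 in any other library (CT24 replicate 2) and 26 in CT20 replicate 1. Ctrb1, chymotrypsinogen, had 42793 reads there and at most 800 elsewhere, and Pnlip, pancreatic lipase, had 32054 and at most 530. Prss2, a trypsinogen, had 19295 and at most 284. Summed over the 10 markers the level was 3519 CPM in CT20 replicate 2, 70.3 in CT24 replicate 2, 35.3 in CT12 replicate 2 and 2.55 to 9.52 in the other 11 libraries. Hepatocyte markers ranged from 39532 to 55290 CPM over the 14 libraries, and CT20 replicate 2 had 54030. In bulk tissue more cells of a type and more RNA per cell cannot be told apart.

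**Figure D4:**
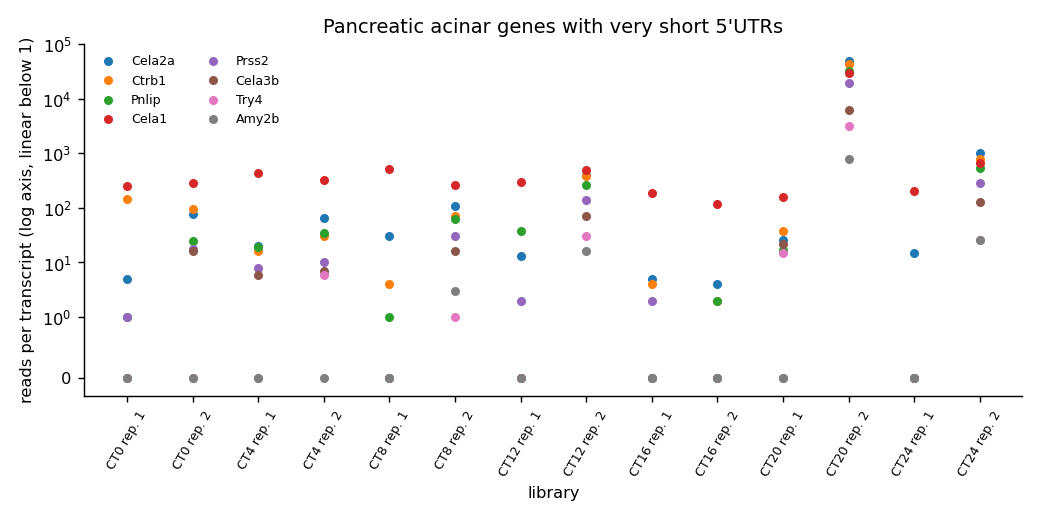
Reads per transcript (log axis, linear below 1) of the 8 pancreatic acinar genes with very short 5′UTRs in each of 14 libraries; points at 0 overlap. All 8 are highest in CT20 replicate 2, where Cela2a has 48460 reads, and CT24 replicate 2 and CT12 replicate 2 come next for most of them.

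The cosine test called all 8 of these genes rhythmic when all libraries were used, with phases near CT18.6 for most, and called none of them without CT20 replicate 2. Zg16, Sycn, Try5 and Pla2g1b, also known from the pancreas, were each over 10 times higher in CT20 replicate 2 than in any other library and were called only with it; the last 2 of these were picked out after their values were seen. Zg16 had 72.8 CPM in CT20 replicate 2 and at most 0.493 elsewhere, and 7 libraries were at 0. Counts of called members are therefore also given without this library.

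Rhythms were tested with edgeR's quasi-likelihood test of a 24 h cosine and sine together, with Benjamini-Hochberg adjustment over 17299 transcripts. Of the 1023 members 97 (9.48%) passed an adjusted p of 0.05, against a background of 11.3% of all transcripts tested and 1223 of 10713 others (11.4%). Without CT20 replicate 2 the count was 83 (8.11%) against a background of 10.7%. There were 76 members called both with and without it, 21 called only with it and 7 called only without it. With JTK_CYCLE, the test the methods name, on CPM by the total count, 233 members (22.8%) had P under 0.05 within the transcript, against a background of 22.2%. With Benjamini-Hochberg adjustment over all transcripts JTK_CYCLE called 19 members (1.86%) against a background of 2.23%. JTK_CYCLE called none of the 8 acinar genes.

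The tests overlapped in part, with 45 members called by both. With TMM scaling JTK_CYCLE called 140 members (13.7%), 65 of them shared with edgeR, against a background of 17.8% and 18.1% of the others. A 24 h cosine fitted to the log2 TMM factors (0.736 to 1.46 on the linear scale) had its maximum at CT22.4 and a range of 0.46 from trough to peak, and its part in the calls was not tested.

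Calls were counted apart for members with ATGGCGGC. Of the 118, edgeR called 2 (1.69%), Mcu and Nup88, and without CT20 replicate 2 it called 3. With total-count scaling Nup88 was lost (edgeR adjusted p = 0.486). Of the 563 matching members without it, 61 (10.8%) were called, near the background of 11.3%, and 51 without CT20 replicate 2. In other transcripts with ATGGCGGC, 19 of 242 (7.85%) were called, against 967 of 8195 without it (11.8%), and without CT20 replicate 2 these were 18 and 922. The fitted log2 range from trough to peak had a median of 0.29 with the letters against 0.39 without them among members, and 0.33 against 0.45 among others. The median read count was similar, at 373 reads per library for members with the letters and 311 for those without. The difference in calls was not tested.

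Peak times of members called by edgeR with TMM scaling lay mostly in the later part of the circadian day. Of the 97, 43 (44.3%) peaked between CT15 and CT21, 29 (29.9%) between CT21 and CT3, 17 (17.5%) between CT9 and CT15 and 8 (8.25%) between CT3 and CT9. Called others were spread more evenly, with 28.9%, 27.3%, 29.1% and 14.7% in these windows. Without CT20 replicate 2 the 83 called members were 32, 25, 14 and 12 in the same order. JTK_CYCLE on total-count CPM gave a lag of 0 h for Gnmt, Tst and Cox6a1, 18 h for Thrsp and 16 h for Cyp2a5, all with P under 0.05. How its calls spread over these windows is not given here and can differ. The median log2 range of the called members was 1.18 with all libraries and 1.05 for the 76 called with and without that library, against 0.95 for called others.

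Thrsp, which promotes fatty acid synthesis, had the clearest large rhythm. In CPM and by replicate 1 and 2 it had 193 and 91.8 at CT0, 36.6 and 17.8 at CT4, 49.0 and 56.0 at CT8, 261 and 134 at CT12, 385 and 410 at CT16, 264 and 256 at CT20, and 125 and 119 at CT24. The pair at CT16 lay above all other libraries and the pair at CT4 below all others. Its fitted peak was CT17.3 ± 0.403 (SE) and its log2 range from trough to peak 3.59 ± 0.44, or 12.0-fold (edgeR adjusted p = 1.19e-05, exact JTK_CYCLE P = 0.000881).

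By edgeR, 7 of the 22 cytochrome P450 members were called, Cyp2e1, Cyp2a5, Cyp4f14, Cyp4a14, Cyp2c37, Cyp2b10 and Cyp2a4, against 10 of the family's 45 other genes and a background of 11.3%. Without CT20 replicate 2, 5 of the 22 and 9 of the 45 were called, against a background of 10.7%. Cyp4f14 was lost then (edgeR adjusted p = 0.0558) and with total-count scaling (0.0554), and Cyp2c37 without that library (0.118). Cyp2a5, a coumarin hydroxylase, had 85.4 and 77.4 CPM at CT0, 51.1 and 52.3 at CT4, 161 and 127 at CT8, 196 and 214 at CT12, 390 and 270 at CT16, 124 and 191 at CT20, and 86.3 and 133 at CT24. Both mice at CT16 were above all others and both at CT4 below. The fitted peak was CT15.1 ± 0.508 with a log2 range of 2.16 ± 0.29 (4.47-fold, edgeR adjusted p = 2.52e-05). Cyp2a4 and Cyp2a5 are close paralogs, and reads that fit both are lost if, as for the density profiles in the methods, only reads with a unique location were counted.

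Cyp4a14, an omega-hydroxylase of fatty acids, was less regular. It had 97.1 and 107 CPM at CT0, 40.9 and 23.9 at CT4, 17.4 and 11.4 at CT8, 21.1 and 26.9 at CT12, 199 and 37.9 at CT16, 23.3 and 61.1 at CT20, and 41.6 and 104 at CT24. At CT16 replicate 1 was the highest of all libraries and replicate 2 in the middle of their range, and the call rested on several libraries (edgeR adjusted p = 0.0305, and between 0.0501 and 0.111 when any of 6 libraries from CT0 to CT12 was left out). Cyp2b10, a target of the xenobiotic receptor CAR, had 48.8 and 6.89 CPM at CT16, where the mice also differed, and 0.991 to 13.3 in the other libraries. Its fitted peak was CT18.9 ± 1.35 (edgeR adjusted p = 0.031, and 0.0549 to 0.0884 without CT4 replicate 2 or either CT8 library).

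Cyp2e1 had 1816 and 2237 CPM at CT0, 2132 and 1902 at CT4, 3331 and 2579 at CT8, 3932 and 3584 at CT12, 3928 and 3813 at CT16, 2187 and 3272 at CT20, and 2302 and 2998 at CT24. The mice at CT12 and CT16 lay above those at all other times. The fitted peak was CT14.1 ± 0.776 with a log2 range of 0.89 ± 0.17 (1.86-fold, edgeR adjusted p = 0.0026), and the adjusted p was 0.0931 with total-count scaling.

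Other enzymes of lipid metabolism were called as well, 3 of the list's 5 members against 32 of its 79 other genes and a background of 11.3% with edgeR, and 3 against 30 and a background of 10.7% without CT20 replicate 2. Acot1 had 6.54 and 10.3 CPM at CT0, 4.09 and 2.48 at CT4, 2.64 and 1.71 at CT8, 2.04 and 3.86 at CT12, 12.7 and 6.25 at CT16, 6.24 and 9.58 at CT20, and 6.73 and 6.85 at CT24. All libraries from CT16 to CT0 were above all from CT4 to CT12. Its peak was CT19.9 ± 0.616 (4.87-fold, edgeR adjusted p = 0.000531). Acaca, the acetyl-CoA carboxylase that starts fatty acid synthesis, peaked at CT17.9 ± 0.759 with a range of 33.6 to 87.4 CPM (1.88-fold, edgeR adjusted p = 0.0065). Acot12, an acetyl-CoA hydrolase with a 5′UTR of 10 nt, peaked at CT12.7 (edgeR adjusted p = 0.00751, and 0.478 with total-count scaling).

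Insig1, one of the members with many 5′UTR reads, had 72.3 and 71.4 CPM at CT0, 44.2 and 38.8 at CT4, 38.8 and 47.0 at CT8, 44.2 and 42.7 at CT12, 67.9 and 89.2 at CT16, 87.8 and 84.3 at CT20, and 68.7 and 65.0 at CT24. The libraries from CT4 to CT12 did not overlap with those of any other time. Its peak was CT19.6 ± 0.386 (2.31-fold, edgeR adjusted p = 4.64e-05, exact JTK_CYCLE P = 0.0636).

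Celsr1 and Pcsk4 were of low abundance and near opposite in time. Celsr1 had 4.35 and 6.27 CPM at CT0, 2.15 and 2.75 at CT4, 0.675 and 2.23 at CT8, 1.33 and 0.678 at CT12, 3.92 and 3.15 at CT16, 4.80 and 3.79 at CT20, and 3.77 and 3.85 at CT24, with a fitted peak at CT21.6 ± 0.711 (edgeR adjusted p = 0.00169). Pcsk4, a proprotein convertase, had 0.304 and 1.54 at CT0, 0.263 and 0.398 at CT4, 4.23 and 1.74 at CT8, 3.16 and 6.96 at CT12, 3.01 and 1.59 at CT16, 0.526 and 0.702 at CT20, and 0.448 and 1.11 at CT24, with a peak at CT12.0 ± 0.994 (edgeR adjusted p = 0.00407). Dmbt1, a secreted scavenger protein, had the largest range of the named members called without CT20 replicate 2, but its mice did not resemble each other: it had 87.2 and 0.0482 CPM at CT0, 8.39 and 59.4 at CT20, 0.0612 and 11.7 at CT24 and 0.0797 to 2.14 at the other times.

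**Figure D5:**
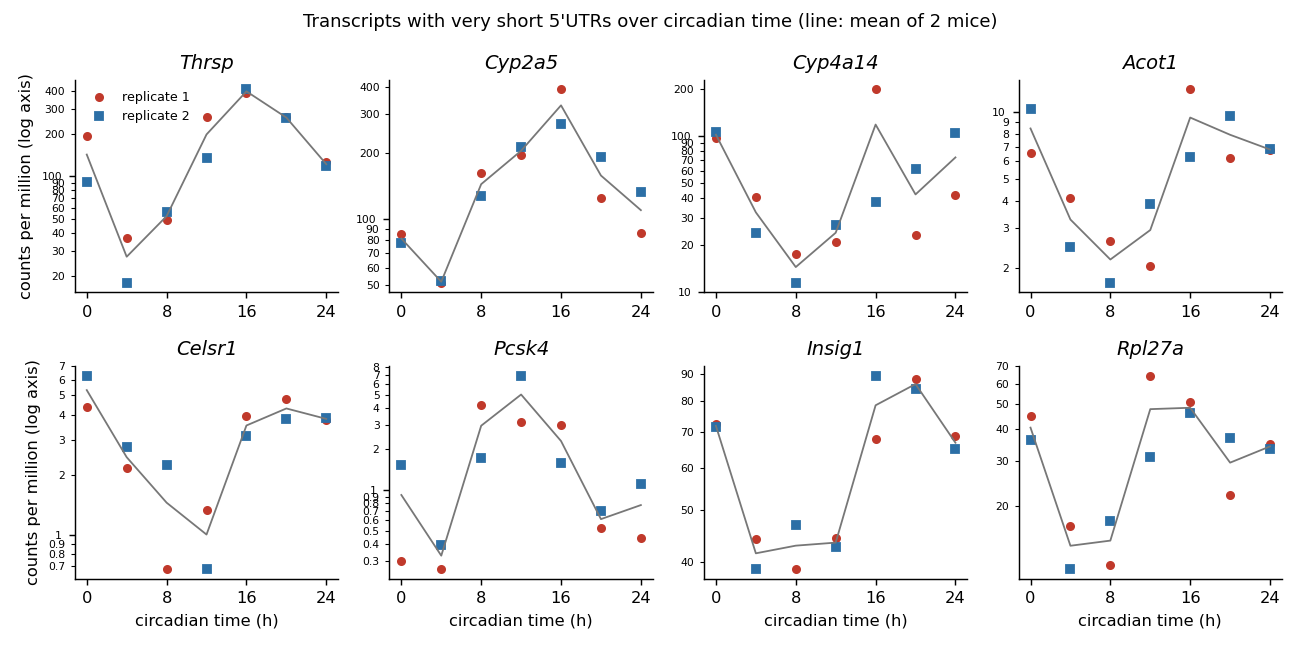
CPM (log axis) against circadian time in h for 8 members, with each mouse as a point (replicate 1, red circles; replicate 2, blue squares) and a line through the means of 2 mice. Thrsp and Cyp2a5 are highest at CT16, Celsr1 and Pcsk4 are near opposite in time, and the 2 mice at CT16 stand apart for Cyp4a14.

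Of the cytosolic ribosomal proteins edgeR called 6 of the 11 members and 47 of the 73 other genes, against a background of 11.3%, and without CT20 replicate 2 the counts were 7 and 47. The difference between members and others was not tested. JTK_CYCLE gave a P under 0.05 for 2 of the 11. The 6 were Rpl7a, Rpl27a, Rpl11, Rps26, Rps15a and Rps28, with fitted peaks from CT16.3 to CT19.5; with total-count scaling Rpl11 was lost (edgeR adjusted p = 0.0529). Rpl27a had 11.3 to 17.5 CPM in the 4 libraries of CT4 and CT8 and 22.1 to 64.4 in all others, so these sets did not overlap. Its peak was CT17.5 ± 1.02 (3.16-fold, edgeR adjusted p = 0.0414), and that of Rpl7a was CT17.4 ± 0.823 (2.26-fold, edgeR adjusted p = 0.0109). Of the 7 ribosomal protein members with a matching sequence, 2 had the pyrimidine start described above.

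Other families are set against the same background of 11.3%. None of the 26 mitochondrial ribosomal proteins, 14 respiratory chain subunits, 9 proteasome subunits, 10 histones, 18 Tmem genes or 4 small GTPase genes among the members was called by edgeR at an adjusted p of 0.05, and among the other genes of these families the counts were 0 of 53, 0 of 66, 0 of 37, 1 of 53, 6 of 126 and 6 of 106. Without CT20 replicate 2 edgeR also called none of these members. In the order given, 3, 2, 1, 0, 0 and 1 of them had an unadjusted edgeR p under 0.05, against 24.4% of all transcripts, and 7, 7, 1, 4, 3 and 1 had a JTK_CYCLE P under 0.05, against the background of 22.2%. Solute carriers gave 3 of 14 members (Slc2a9, Slc25a12 and Slc13a2) against 46 of 215 others, and 5 against 39 without CT20 replicate 2. With total-count scaling Slc2a9 and Slc25a12 were lost (edgeR adjusted p = 0.56 and 0.185). Zinc finger proteins gave 1 of 15 (Zfp385a) against 8 of 287, and 1 against 9 without that library. Conjugating transferases gave 1 of 4 (Ugt2b34) against 11 of 43, and 1 against 12 without it. Secreted plasma proteins gave 2 of 11 against 15 of 99, and 3 against 14 without it. Their 2 were Fgb, with a peak at CT5.78 ± 0.916 (edgeR adjusted p = 0.0389, 0.0544 without CT20 replicate 2 and 0.113 with total-count scaling), and Apoa5, with a peak at CT15.8 ± 1.03 (edgeR adjusted p = 0.0267, and 0.139 with total-count scaling).

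Other members with most reads in their families are given by their range over the 14 libraries. Tmem205, whose gene also has a longer transcript with more reads (9579 5′UTR reads against 0 in the short one), had 136 to 223 CPM and Cyp2c70 297 to 519. The histone genes H4c3 and H2bc22 had 41.6 to 75.7 and 33.8 to 69.6. The nucleotide sugar carrier Slc35d1 had 29.9 to 41.0, the exporter of organic cations Slc47a1 18.4 to 31.03, and Rab1a, a GTPase of early secretion, 27.3 to 49.3. None of these 7 passed edgeR's test, with adjusted p between 0.366 (Slc35d1) and 0.965 (H4c3). On total-count CPM the JTK_CYCLE P was under 0.05 for Tmem205 and Slc47a1 (0.0297 each) and H2bc22 (0.0439). Ugt2b34, the conjugating enzyme that was called, had 152 to 291 CPM and a peak at CT16.7 ± 0.633 (1.58-fold, edgeR adjusted p = 0.00573, and 0.0644 with total-count scaling).

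Rora was not called, and 19 of the 24 other clock and clock-output genes were. The tables also hold a Rora transcript with a 5′UTR of 180 nt and more reads (147 5′UTR reads against 0 in the short one), so these values are those of the short transcript and not of the whole gene. It had 10.2 and 10.6 CPM at CT0, 6.91 and 7.38 at CT4, 8.04 and 8.17 at CT8, 6.83 and 6.54 at CT12, 8.02 and 8.88 at CT16, 7.10 and 11.4 at CT20, and 9.42 and 7.30 at CT24. The pair at CT0 lay above every library but CT20 replicate 2, and the log2 range from trough to peak was 0.41 ± 0.17 (edgeR adjusted p = 0.252, exact JTK_CYCLE P = 0.0196).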

How the data were processed

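Ribosome-protected fragments of liver were measured in 14 libraries, 2 mice at each of 7 circadian times. A 15th sample of the series is a second run of CT16 replicate 2 and has no table of its own; all counts of that library are even numbers. The authors deposited raw read counts for 3 regions of each RefSeq transcript, its 5′UTR, coding sequence and 3′UTR. Per the methods and the submitters' processing notes, adapters were clipped, rRNA reads removed with Bowtie2 2.1.0.0, the rest aligned to mm10 and exact matches kept with SAMtools 0.1.19.0. The methods built density profiles from reads with a unique location. How a read in several transcripts of a gene was counted is not given in the sources used here, and equal CDS counts of some transcript pairs show that such reads can enter more than 1 transcript.

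Symbols came from RefSeq and GENCODE tables (1021 of 1023 members). CDS density was RPKM on TMM-scaled totals, with 0.5 reads added for log2. Rhythms were tested with edgeR 4.0.16 (TMM, quasi-likelihood) over 17299 transcripts, with CT24 at the angle of CT0, and with JTK_CYCLE rewritten in Python. The JTK_CYCLE P was adjusted over the lags tried. Times with equal cosines were ranked in the order that returned the P and lag listed by the study. Standard errors of phases are from least squares on log2 CPM. On simulated counts of 17299 transcripts the edgeR test recovered 51 of 100 rhythms with a log2 range from trough to peak of 1 and 93 of 100 with 2. These rhythms were placed only in transcripts with a higher mean count than the members' minimum, so recovery at low counts was not measured. Mice differed between times, with 2 per time. The spread behind the edgeR p-values holds differences between animals, any departure from a 24 h cosine and any difference between CT0 and CT24. JTK_CYCLE is based on ranks.

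Named members were the 10 with the highest CDS density; the 12 called with the largest range from trough to peak, a mean of at least 100 reads and replicate phases within 4 h; the 5 of at most 10 nt with most reads; the 5 with ATGGCGGC and the highest density; clock genes; the 2 with most reads in each family of at least 3 members; and the 5 with most 5′UTR reads per CDS read. Some items that the rules name are not reported here. Members and lists were chosen with earlier results of these data known. Alternatives covered scaling, DESeq2 1.42.0, count minimums, length limits, annotation and leaving out each library.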

Additional observations from a re-analysis of the deposited data

How the results depend on the processing

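The median CDS density difference, 0.87 on the log2 scale, kept its direction under every alternative run. It was 0.95 for the whole transcript, 0.79 as a mean, 1.03 with a count minimum of 1, 0.61 with a minimum of 100, 0.62 within CDS length classes and 0.54 for matching members with no longer GENCODE 5′UTR, the last chosen after seeing the data. Leaving out each library gave 0.86 to 0.87. The edgeR count of 97 was 51 for 5′UTRs of 1 to 20 nt and 151 for 1 to 40 nt, which hold fewer and more members, 82 with total-count scaling, 114 with DESeq2 and at least 67 when a library was left out, lowest without CT12 replicate 2. With the replicate block it was 89. Deviations of same-numbered libraries correlated over 0.1 in 3 of 21 pairs (median 0.031, highest 0.302). Whether the replicate number stands for a batch was not tested. The JTK_CYCLE count of 233 was 140 with TMM scaling, 19 with Benjamini-Hochberg over transcripts and 220 without CT20 replicate 2. The 5′UTR share of 0.328% was 0.824% for 1 to 40 nt, 0.237% without the 10 members with most reads, 0.151% for matching members (an alternative chosen after seeing the data), and 0.317 to 0.334% when a library was left out. Start codon context did not move beyond its interval. The fitted peak of Sycn ranged from 2.245 h without CT20 replicate 2 to 20.02 h when a library was left out, against 18.7 h with all. The smallest log2 range among called members was 0.45 (Gnmt), and ranges under 1 were not simulated.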
